A study of Homo sapiens with 6 samples.

Results

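SR proteins and heterogeneous nuclear ribonucleoproteins (hnRNPs), with the kinases that phosphorylate SR proteins, were followed in LN229 cells treated with ursodeoxycholic acid (UDCA). The genes were taken by symbol, from protein-coding genes of GENCODE 29: numbered SRSF symbols, symbols that begin with HNRNP, CLK1 to CLK4, SRPK1, SRPK2, PTBP1, PTBP2, TRA2A and TRA2B. The deposited table listed 46 of these genes among 33890 genes, 20 on the SR side and 26 on the hnRNP side. HNRNPCL3, HNRNPCL4 and the readthrough gene HNRNPUL2-BSCL2 meet the same rule and were not analysed here. The values did not enter the rule.

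LN229 is an established human glioblastoma line, here labelled as grade IV glioma, and UDCA is a bile acid given to patients whose bile flow is impaired. The 3 UDCA libraries came from LN229 cells kept in 800 µM UDCA for 48 h, and the 3 control libraries from LN229 cells without it. All 6 libraries hold polyadenylated RNA of cells grown in the same serum-containing medium, and no vehicle is named for the control cells. No label states that the 3 libraries per group are from separate cultures, so the p-values reflect only the spread among these samples, and this can be technical.

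Levels are given in FPKM, reads scaled by the length of a gene's merged exons and by library total. Recovered reads per library came to between 15988951 and 17045218 with UDCA and between 16639832 and 17743022 in control. Of 10 glioma line markers 8 were expressed enough to be tested, and 6 of these were lower and 1 (EGFR) higher with UDCA. The 10 markers summed to between 345 and 350 FPKM with UDCA and between 1059 and 1073 FPKM in control, and VIM stood at 65.1 FPKM with UDCA and 167 FPKM in control. SOX2 stood at 2.58 FPKM in UDCA and 77.0 FPKM in control cells, while GFAP, with 0.505 and 0.612 FPKM in UDCA and control cells, and SOX9 were too low to be tested. The 12 markers of immune, endothelial, epithelial and neuronal cells summed to between 0.558 and 1.20 FPKM with UDCA and between 1.87 and 2.08 FPKM in control. Only TUBB3 among them was tested, and was called lower. TUBB3 passed the filter of 1 FPKM in 3 libraries through the control libraries alone, so the filter fixed the direction of that call. CD3E and KRT19 were at 0 in every UDCA library, and CDH5 and CDH1 in every control library. The part that the marker shifts have in the values of the splicing genes was not tested.

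SR proteins carry RNA recognition motifs and a tail rich in arginine and serine, and they mostly promote the use of an exon when they bind within it. SRPK kinases phosphorylate that tail in the cytoplasm, which allows nuclear import, and CLK kinases phosphorylate it further in the nucleus and release SR proteins from nuclear speckles. hnRNPs coat nascent transcripts and often block splice sites, so that the balance between both families helps to decide which exons enter an mRNA. Many of these genes limit their own protein level by splicing their transcripts into forms that nonsense-mediated decay removes.

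The promoters of 4 genes are printed first, because SRSF3, TRA2B and HNRNPUL2 had the largest falls among the genes and SRSF5 was the single SRSF gene that was higher. Each is the RefSeq window of 300 bases, from 250 bases before a transcription start to 50 bases after it, on GRCh38.p14 and written 5′ to 3′ on the gene's strand. SRSF3 lies at chr6:36594112-36594411 on the plus strand, TRA2B at chr3:185937965-185938264 on the minus strand, HNRNPUL2 at chr11:62727408-62727707 on the minus strand and SRSF5 at chr14:69766892-69767191 on the plus strand. Capitals mark matches, on either strand, to the CCAAT box (CCAAT), to TTTNNCGC (resembling sites of E2F factors), or to CCGGAAG (the core bound by ETS factors).
SRSF3: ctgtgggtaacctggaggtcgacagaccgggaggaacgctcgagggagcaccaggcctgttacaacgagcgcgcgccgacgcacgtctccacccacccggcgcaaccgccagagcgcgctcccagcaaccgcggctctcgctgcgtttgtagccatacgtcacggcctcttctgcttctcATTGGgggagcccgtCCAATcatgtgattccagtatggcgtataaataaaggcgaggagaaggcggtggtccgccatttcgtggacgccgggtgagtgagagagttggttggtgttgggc
TRA2B: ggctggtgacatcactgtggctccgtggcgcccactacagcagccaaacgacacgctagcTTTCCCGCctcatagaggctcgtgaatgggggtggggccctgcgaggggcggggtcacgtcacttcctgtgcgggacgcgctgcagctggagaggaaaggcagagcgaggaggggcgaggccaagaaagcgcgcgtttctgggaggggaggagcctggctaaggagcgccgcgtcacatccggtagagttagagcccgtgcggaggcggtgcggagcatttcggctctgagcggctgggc
HNRNPUL2: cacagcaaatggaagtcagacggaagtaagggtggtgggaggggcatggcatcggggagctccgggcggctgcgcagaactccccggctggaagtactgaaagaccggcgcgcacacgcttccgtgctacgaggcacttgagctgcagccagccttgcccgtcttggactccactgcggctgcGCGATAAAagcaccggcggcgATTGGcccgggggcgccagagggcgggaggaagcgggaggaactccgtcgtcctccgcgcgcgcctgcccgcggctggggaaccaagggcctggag
SRSF5: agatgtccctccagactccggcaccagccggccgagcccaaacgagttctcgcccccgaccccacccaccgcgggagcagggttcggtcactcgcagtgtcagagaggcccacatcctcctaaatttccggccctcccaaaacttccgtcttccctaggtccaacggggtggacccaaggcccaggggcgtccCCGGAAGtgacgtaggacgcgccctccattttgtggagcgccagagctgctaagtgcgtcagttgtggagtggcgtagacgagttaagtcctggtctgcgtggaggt
The SRSF3 window holds CCAAT boxes that start 70 and 55 bases before the transcription start, and no match to TTTNNCGC, CCGGAAG or the E-box CACGTG. TRA2B holds TTTNNCGC in the forward direction, HNRNPUL2 holds it on the opposite strand together with a CCAAT box, and SRSF5 holds CCGGAAG alone. The RefSeq table matched 39 of the 43 tested genes, with 59 promoters in all. TTTNNCGC occurred in 18.6% of these 59 promoters and in 6.89% of all 35116 promoters of the table. CACGTG occurred in 16.9% of the 59 and in 7.26% of all promoters, CCAAT in 40.7% and 34.6%, and CCGGAAG in 11.9% and 10.3%. These are counts of letters in a window, with no measurement of binding. A gene with several promoters counts more than once, and the shares were not counted over promoters of tested genes alone.

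Most SR protein and hnRNP genes were lower with UDCA. Of the 43 genes tested, 35 fell (81.4%), 4 rose (9.30%) and 4 were not called, where 35.7% of all 14380 genes tested were called lower and 45.1% higher. A call is an adjusted p under 0.05 from limma on log2(FPKM + 1), with Benjamini-Hochberg adjustment over all genes tested. Among protein-coding genes alone, 39.1% of 11297 were called lower. At least 2-fold falls on that log2 scale occurred in 13 genes (30.2%), against a background of 12.0% of all genes tested, and none rose at least 2-fold, against a background of 12.3%; that count is 0 also at an unadjusted p under 0.05 and with limma's voom on the recovered reads. The median log2 difference was -0.56 for the 43 genes and 0.095 for all genes tested. The UDCA and control libraries did not overlap for 40 of the 43 genes, and the same held for 82.8% of all genes tested. These are values per amount of RNA from a bulk lysate, in which fewer cells with a transcript and less of it per cell cannot be told apart. The genes that fell were 10 SRSF genes, both TRA2 genes, 22 hnRNP and PTBP genes and 1 kinase gene, CLK2.

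**Figure D1:**
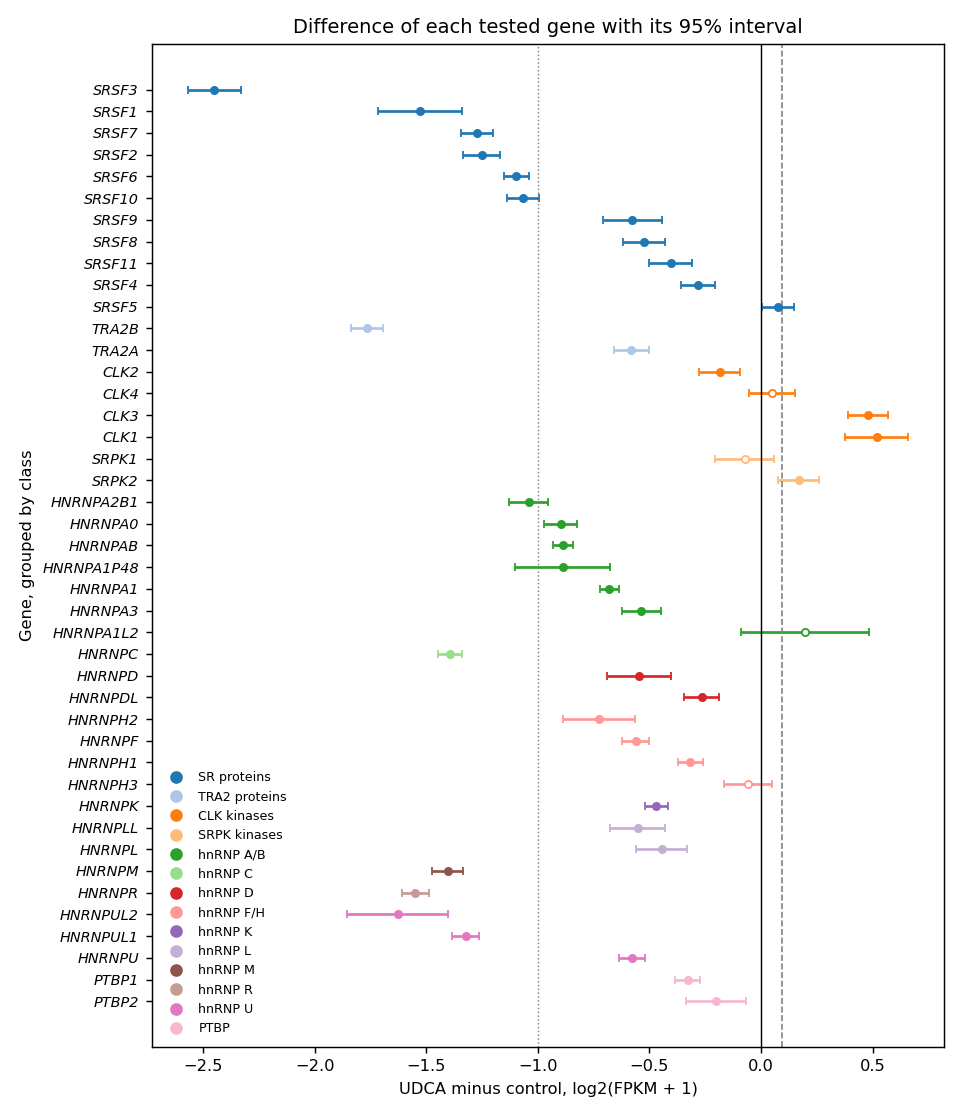
Difference in log2(FPKM + 1), UDCA minus control, of the 43 tested genes, grouped and coloured by class, with 95% intervals from limma; open circles are genes not called. The solid line marks 0, the dotted line a 2-fold fall and the dashed line the median of all genes tested (0.095). SRSF3 lies farthest left at -2.45, and CLK1 and CLK3 farthest right at 0.52 and 0.48.

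Among the SRSF genes, which encode the SR proteins themselves, 10 of 11 tested genes fell, 6 of them at least 2-fold, as they did under every alternative. SRSF5 was called higher in the fit reported here and under 6 of the 12 alternatives; under median ratio scaling its difference was -0.033. SRSF3 (ENSG00000112081, chromosome 6 from 36594353 to 36605600, plus strand, GRCh38) encodes a small SR protein that also serves as an adaptor for mRNA export. SRSF3 had 8.44, 7.94 and 9.25 FPKM in the UDCA libraries and 50.7, 51.6 and 50.9 FPKM in the control libraries. Every UDCA library lay far under every control library, and the groups did not overlap. The means were 8.54 ± 0.664 FPKM with UDCA and 51.1 ± 0.448 FPKM in control (SD, n = 3 each), a 5.98-fold fall. The log2 difference was -2.45 (SE 0.0499, adjusted p = 2.34e-08 from limma), and 2.33% of all tested genes had a lower one. It rested on 3041 reads in the UDCA libraries together and 18753 in the control libraries together.

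SRSF7, the closest relative of SRSF3 and likewise an export adaptor, had 14.5, 13.9 and 13.6 FPKM in UDCA cells and 35.5, 35.9 and 34.5 FPKM in control cells. Its level with UDCA was thus 39.7% of control (log2 difference -1.27, adjusted p = 4.86e-08 from limma). The ratio of SRSF3 to SRSF7 was 0.584, 0.570 and 0.679 in the UDCA libraries and 1.43, 1.44 and 1.48 in the control libraries. SRSF3 was the lower of the pair in every UDCA library and the higher in every control library, per merged length and also in the means per length of the principal transcript (14.4 and 22.8 FPKM for SRSF3 and SRSF7 with UDCA, 86.1 and 57.3 FPKM in control). An exact permutation test of that ratio gave p = 0.1, two-sided, which is the smallest value that 3 libraries against 3 can give.

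SRSF1, the founding SR protein and a proto-oncogene in several tumours, had 5.94, 5.67 and 4.62 FPKM with UDCA and 17.8, 17.0 and 17.5 FPKM in control. The fall was 3.22-fold (log2 difference -1.53, SE 0.0787, adjusted p = 2.04e-06 from limma). Of its exon bases 60.7% also belong to other annotated genes, mostly AC015813.2 on the same strand, which is not among the genes listed. How reads in shared bases were assigned is not given in the sources used here, so the level of SRSF1 is uncertain. SRSF9, which resembles SRSF1 in its paired RNA recognition motifs, averaged 15.2 ± 1.14 FPKM with UDCA and 23.1 ± 0.830 FPKM in control (SD, n = 3 each). It shares 46.2% of its exon bases with GATC on the opposite strand, which was itself called higher with UDCA (4.24 FPKM, against 3.59 FPKM in control).

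SRSF2, a component of nuclear speckles, had 23.8, 25.5 and 23.5 FPKM in UDCA libraries and 59.8, 57.7 and 59.95 FPKM in control libraries. No library of one group came near the other, and the fall was 2.44-fold (log2 difference -1.25, adjusted p = 1.05e-07 from limma). It shares 36.7% of its exon bases with other genes, chiefly MFSD11 on the opposite strand, which was lower too (1.35 FPKM with UDCA, against 4.14 FPKM in control). SRSF8, which arose from SRSF2 as a retrocopy, averaged 6.91 ± 0.283 FPKM in UDCA and 10.4 ± 0.228 FPKM in control cells (SD, n = 3 each). Whether the counting split reads between these near copies is not known.

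SRSF6 belongs to the group of SR proteins with paired recognition motifs that also holds SRSF4 and SRSF5. SRSF6 had 30.5, 31.2 and 29.8 FPKM with UDCA and 65.8, 66.9 and 66.3 FPKM in control, and was the most abundant SRSF gene of the control cells per merged length. The fall was 2.18-fold (log2 difference -1.10, SE 0.0238, adjusted p = 3.09e-08 from limma). SRSF4 fell less, to 81.05% of control, with a log2 difference of -0.28.

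SRSF5 stood apart from the other SRSF genes. It lies on chromosome 14 from 69726900 to 69772005, plus strand, and had 46.9, 45.9 and 44.4 FPKM in the UDCA libraries and 43.5, 44.3 and 42.2 FPKM in the control libraries. The groups came as close as 44.36 FPKM in UDCA replicate 3 and 44.29 FPKM in control replicate 2. The log2 difference was 0.076 (95% interval 0.0054 to 0.15, adjusted p = 0.0479 from limma). It turned to -0.033 (adjusted p = 0.315) when libraries were scaled by the median ratio over genes, and leaving out control replicate 1, control replicate 3, UDCA replicate 1 or UDCA replicate 2 ended the call, with adjusted p of 0.0934, 0.141, 0.141 and 0.109. Without the filter on low values it was not called either (adjusted p = 0.0848). SRSF6 against SRSF5 had ratios of 0.651, 0.680 and 0.671 with UDCA and of 1.51, 1.51 and 1.57 in control, a difference of -1.20 in log2 ratio. The order of this pair depends on the length used, since per length of the principal transcript SRSF6 was below SRSF5 in both groups (32.4 and 87.0 FPKM with UDCA, 70.4 and 82.4 FPKM in control).

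The other SRSF genes fell by between 0.28 (SRSF4) and 1.07 (SRSF10) on the log2 scale. SRSF10, a general splicing repressor when dephosphorylated, reached 45.5% of its control level. SRSF11 reached 74.9%. SRSF12 had 36 reads in the UDCA libraries together and 23 in the control libraries together, too few to be tested.

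**Figure D2:**
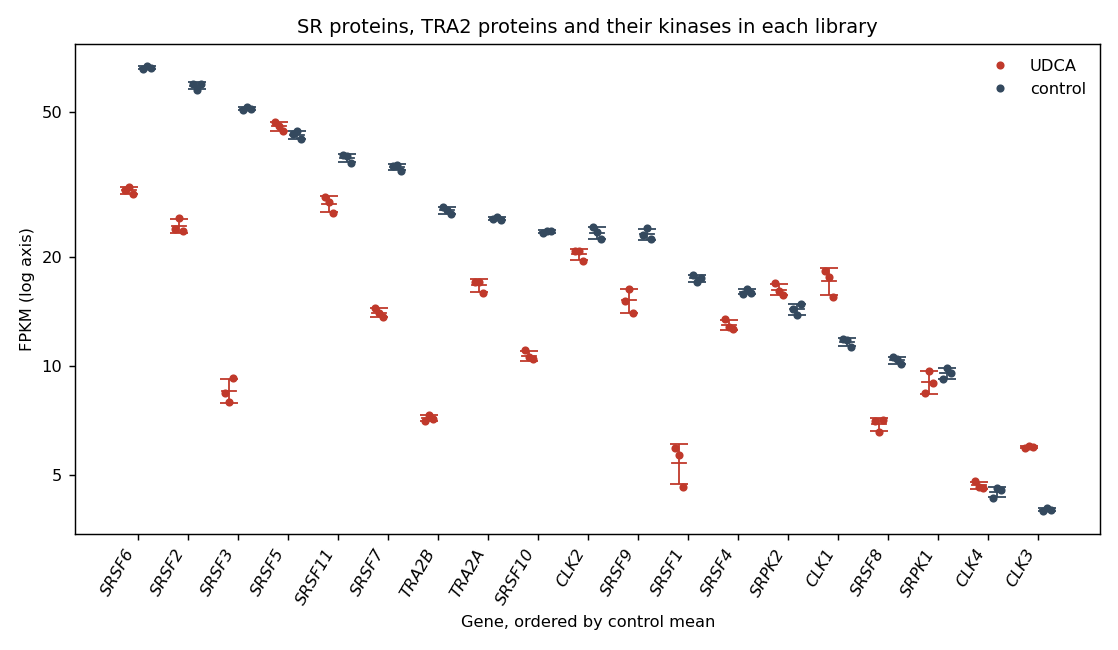
FPKM, on a log axis, of the 19 tested SR proteins, TRA2 proteins and kinases in each library, UDCA to the left of control for each gene; points are libraries, horizontal lines means and bars SD (n = 3 each). The SRSF3 points at 7.94 to 9.25 FPKM with UDCA lie far under those at 50.7 to 51.6 FPKM in control, and the SRSF5 points almost touch.

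The 12 SRSF genes listed together summed to 202 ± 5.55 FPKM with UDCA and 383 ± 3.06 FPKM in control (SD, n = 3 each), so that 52.8% of the control sum was found with UDCA. The make-up of the sum differed as well. SRSF5 made up 22.8%, 22.4% and 22.7% of it in the UDCA libraries and 11.3%, 11.5% and 11.1% in the control libraries. SRSF3 made up 4.09%, 3.88% and 4.72% with UDCA and 13.2%, 13.4% and 13.4% in control. By rank, SRSF5 was number 1 with UDCA and number 4 in control, and SRSF3 was number 9 with UDCA and number 3 in control. These ranks depend on the length used, since merged exons are 6.30 times as long as the principal transcript for SRSF10 and 1.06 times as long for SRSF6. Per length of the principal transcript, SRSF10 had 67.2 FPKM with UDCA and 148 FPKM in control.

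**Figure D3:**
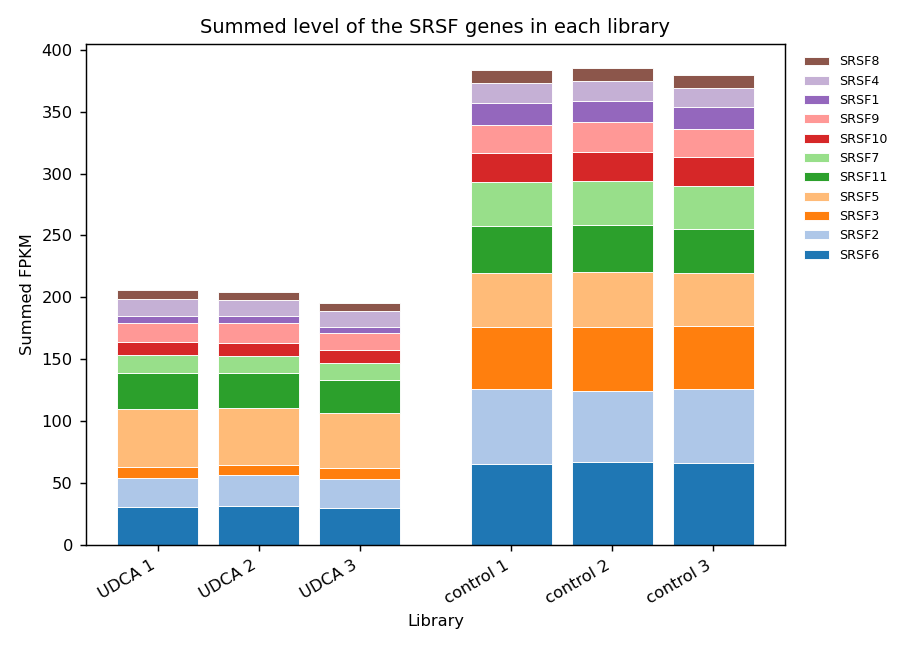
Summed FPKM of the 11 tested SRSF genes in each library, stacked by gene, with the UDCA libraries on the left and the control libraries on the right. The sum is 202 FPKM on average with UDCA and 383 FPKM in control, and the SRSF5 segment is 45.7 FPKM high on average with UDCA and 43.3 FPKM in control.

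TRA2 proteins resemble SR proteins and bind GA-rich exon enhancers. TRA2B, known for promoting inclusion of an exon of SMN2, had 7.04, 7.34 and 7.15 FPKM in UDCA cells and 27.4, 26.9 and 26.2 FPKM in control cells. That is a 3.74-fold fall (log2 difference -1.77, SE 0.0304, adjusted p = 1.13e-08 from limma) without overlap of the groups. Its paralog TRA2A had 17.0, 17.1 and 15.9 FPKM with UDCA and 25.3, 25.7 and 25.2 FPKM in control, a fall of 0.58 on the log2 scale. The ratio of TRA2B to TRA2A was 0.413, 0.430 and 0.450 with UDCA and 1.08, 1.05 and 1.04 in control.

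The kinases of SR proteins changed in both directions, and none of those called differed by 2-fold or more. Of the 6 CLK and SRPK genes 3 rose, 1 fell and 2 were not called, while under quantile normalization and under median ratio scaling 2 rose and 2 fell. Over all genes tested 45.1% were called higher and 35.7% lower, so the count of rises lies near the background. Calls of at least 2-fold made up 12.3% (higher) and 12.0% (lower) of all genes tested. CLK1, whose own splicing responds to stress, had 18.2, 17.6 and 15.5 FPKM with UDCA and 11.8, 11.7 and 11.3 FPKM in control. It was 1.47-fold higher with UDCA (log2 difference 0.52, SE 0.0593, adjusted p = 1.45e-04 from limma). CLK3 had 5.95, 6.02 and 5.99 FPKM in UDCA libraries and 3.98, 4.06 and 3.998 FPKM in control libraries, a 1.49-fold rise. Its merged exons are 11.1 times as long as its principal transcript, so its level beside other CLK genes depends on the length used.

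CLK2 was the one kinase gene that fell, with 20.7, 20.8 and 19.5 FPKM in UDCA cells and 24.1, 23.3 and 22.4 FPKM in control cells (log2 difference -0.19, adjusted p = 0.00326 from limma). CLK4 had 4.80, 4.62 and 4.62 FPKM with UDCA and 4.32, 4.599 and 4.56 FPKM in control, and was not called (adjusted p = 0.332 from limma). Its log2 difference was 0.049 (95% interval -0.055 to 0.15), and -0.043 under median ratio scaling. The 4 CLK genes summed to 48.1 ± 2.20 FPKM with UDCA and 43.4 ± 1.02 FPKM in control (SD, n = 3 each). The ratio of CLK2 to CLK3 was 3.48, 3.45 and 3.25 with UDCA and 6.05, 5.74 and 5.597 in control.

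SRPK2 had 16.9, 16.1 and 15.7 FPKM in UDCA libraries and 14.4, 13.8 and 14.8 FPKM in control libraries. All UDCA values were above the control values (log2 difference 0.17, adjusted p = 0.00511 from limma), and the call was lost under quantile normalization (adjusted p = 0.0918) and under median ratio scaling (adjusted p = 0.157). SRPK1, the more widely expressed kinase of the pair, had 8.40, 9.68 and 8.96 FPKM with UDCA and 9.18, 9.89 and 9.53 FPKM in control, with overlap. Its log2 difference of -0.074 (95% interval -0.20 to 0.057) was not called, but was called lower under quantile normalization (adjusted p = 0.0376) and median ratio scaling (adjusted p = 0.0216).

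On the hnRNP side 22 of 24 tested genes fell and none rose (also 0 at an unadjusted p under 0.05 and with voom). Without control replicate 2 the count of higher genes was 1 (HNRNPA1L2). HNRNPUL2, HNRNPR, HNRNPM, HNRNPC, HNRNPUL1 and HNRNPA2B1 were the 6 that fell at least 2-fold. Over all genes tested 35.7% were called lower, 45.1% higher and 12.0% lower at least 2-fold. The median log2 difference of the 24 genes was -0.57. Symbols that begin with HNRNP summed to 965 ± 14.3 FPKM with UDCA and 1637 ± 22.0 FPKM in control (SD, n = 3 each), 59.0% of the control sum. The adjusted p-values from limma ran between 8.22e-09 for HNRNPC and 0.0135 for PTBP2 among the 22 genes that fell.

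**Figure D4:**
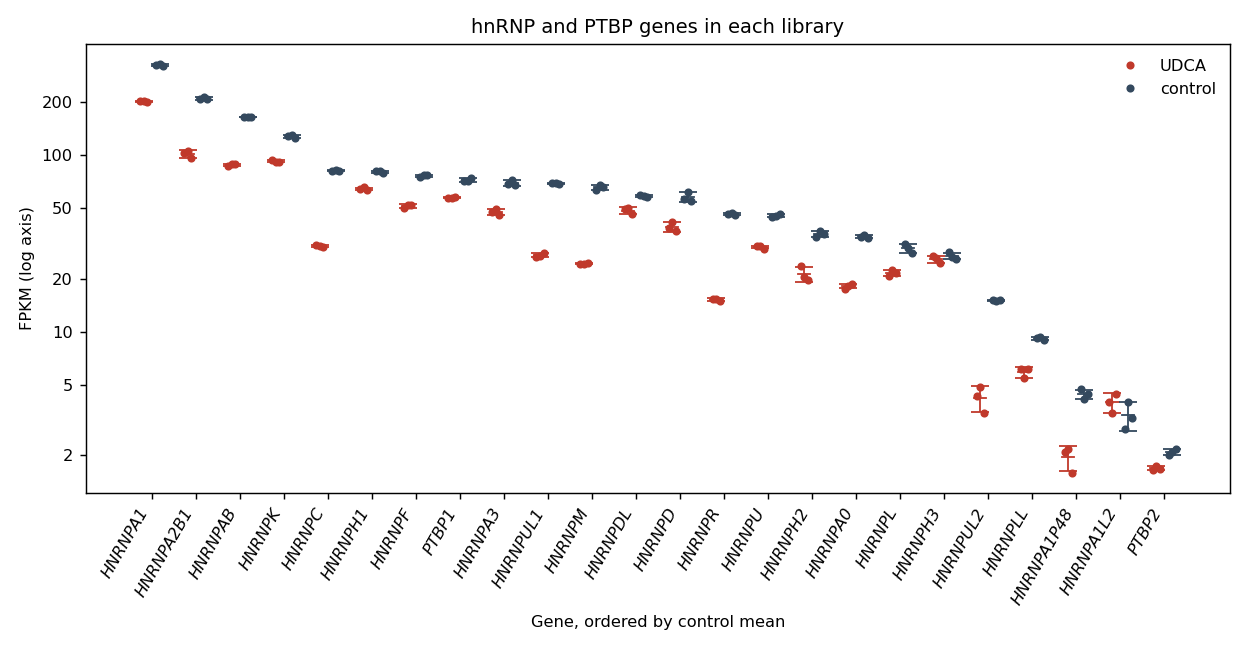
FPKM, on a log axis, of the 24 tested hnRNP and PTBP genes in each library, UDCA to the left of control for each gene; points are libraries, horizontal lines means and bars SD (n = 3 each). HNRNPA1 is highest in both groups, at 201 FPKM with UDCA and 323 FPKM in control, and only HNRNPH3 and HNRNPA1L2 overlap between the groups.

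The A/B hnRNPs are among the most abundant RNA-binding proteins of the nucleus, and HNRNPA1 opposes SRSF1 in the choice between competing splice sites. HNRNPA1 had 201.6, 201.6 and 200.5 FPKM with UDCA and 323, 327 and 319 FPKM in control, the highest levels of all 43 genes per merged length. Per length of the principal transcript HNRNPA2B1 was above it, with 269.8 FPKM against 248.7 FPKM in UDCA cells and 558 FPKM against 399 FPKM in control cells. The fall of HNRNPA1 was 1.605-fold (log2 difference -0.68, SE 0.0173, adjusted p = 6.35e-08 from limma). HNRNPA2B1, which also carries RNAs to distant parts of the cell, had 103, 106 and 96.4 FPKM in UDCA libraries and 209, 215 and 207 FPKM in control libraries, a 2.07-fold fall. Its share of the HNRNP sum was 10.5% with UDCA and 12.9% in control, while that of HNRNPA1 was 20.9% with UDCA and 19.7% in control.

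HNRNPAB, which encodes an RNA-binding protein also called CBF-A, had 86.8, 89.1 and 89.2 FPKM with UDCA and 165, 164 and 165 FPKM in control. Its log2 difference of -0.89 was close to that of HNRNPA0, an intronless gene with 17.6, 18.2 and 18.7 FPKM with UDCA and 34.4, 35.5 and 34.2 FPKM in control (-0.90). HNRNPA3 fell by 0.54. None of these 3 genes had overlapping groups, and the same held for 82.8% of all genes tested. HNRNPAB shares 9.14% of its exon bases with PHYKPL on the opposite strand, which was called higher (13.5 FPKM with UDCA, against 5.75 FPKM in control).

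The close copies of HNRNPA1 could share reads with it. HNRNPA1L2 had 4.01, 3.46 and 4.47 FPKM with UDCA and 2.80, 4.03 and 3.25 FPKM in control, with overlap and no call (log2 difference 0.20, 95% interval -0.088 to 0.48, adjusted p = 0.166 from limma). Without control replicate 2 it was called higher (log2 difference 0.30, adjusted p = 0.0372). HNRNPA1P48, a protein-coding gene in GENCODE 29 despite its pseudogene-like name, had 2.08, 2.17 and 1.59 FPKM with UDCA and 4.72, 4.17 and 4.42 FPKM in control (-0.89). Both are reported as uncertain, since they differ little from HNRNPA1 in sequence.

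HNRNPC, which binds runs of uridine and keeps Alu elements from becoming exons, had 31.2, 30.6 and 30.02 FPKM in UDCA cells and 81.9, 82.9 and 81.1 FPKM in control cells. It fell 2.68-fold, with groups far apart (log2 difference -1.39, SE 0.0222). Its relatives HNRNPCL1 and HNRNPCL2 had 3 and 1 reads in the UDCA libraries together and none in the control libraries, at or under the floor of 3 reads, and were not tested.

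HNRNPM, which binds GU-rich sequences, had 24.1, 24.2 and 24.4 FPKM with UDCA and 63.4, 67.8 and 66.3 FPKM in control. HNRNPR, a relative of SYNCRIP that is known from RNA transport in motor neurons, had 15.4, 15.4 and 14.9 FPKM with UDCA and 46.6, 47.1 and 45.8 FPKM in control. The falls were 2.71-fold for HNRNPM and 3.06-fold for HNRNPR, with log2 differences of -1.40 and -1.55. The means with UDCA were 36.8% of control for HNRNPM and 32.7% for HNRNPR, and the groups did not overlap.

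The U group binds both RNA and DNA and helps to organise chromatin. HNRNPUL2 had 4.35, 4.84 and 3.46 FPKM in UDCA libraries and 15.2, 14.9 and 15.1 FPKM in control libraries, a 3.57-fold fall (log2 difference -1.63, SE 0.0942, adjusted p = 3.74e-06 from limma). It shares 44.1% of its exon bases with HNRNPUL2-BSCL2 on the same strand. How reads in these shared bases were assigned is not given in the sources used here, so the level of HNRNPUL2 is uncertain. HNRNPUL1 had 26.5, 26.9 and 27.9 FPKM with UDCA and 69.9, 69.4 and 69.0 FPKM in control, a 2.56-fold fall. HNRNPU, the scaffold attachment factor, had 30.6, 30.5 and 29.6 FPKM with UDCA and 45.0, 45.2 and 46.5 FPKM in control, a 1.51-fold fall. The ratio of HNRNPUL1 to HNRNPU, per merged length, was 0.868, 0.884 and 0.944 with UDCA and 1.56, 1.54 and 1.48 in control.

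In the D and K classes all genes fell. HNRNPD, also called AUF1 and known for directing the decay of AU-rich mRNAs, had 38.6, 42.1 and 37.2 FPKM with UDCA and 56.4, 62.2 and 55.0 FPKM in control (-0.55 on the log2 scale). HNRNPDL had 49.3, 50.2 and 46.4 FPKM with UDCA and 59.4, 58.6 and 58.0 FPKM in control (-0.27). HNRNPK, which binds runs of cytidine, had 93.6, 91.5 and 91.7 FPKM with UDCA and 128, 131 and 126 FPKM in control (-0.47). In each of these 3 genes every UDCA library was lower than every control library. Groups did not overlap, in either direction, for 82.8% of all genes tested.

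The F/H group binds runs of guanosine. HNRNPF had 50.01, 52.0 and 52.5 FPKM in UDCA cells and 75.3, 77.3 and 77.0 FPKM in control cells (log2 difference -0.56). HNRNPH1 had 64.3, 65.7 and 63.2 FPKM with UDCA and 81.2, 81.0 and 79.1 FPKM in control (-0.32). Both were lower in all UDCA libraries, where 82.8% of all genes tested had groups without overlap in either direction. HNRNPH2, an X-linked gene that shares 16.3% of its exon bases with a readthrough gene, had 23.7, 20.51 and 19.7 FPKM with UDCA and 34.4, 37.1 and 35.9 FPKM in control (-0.73). HNRNPH3 had 26.9, 26.0 and 24.5 FPKM with UDCA and 28.2, 26.5 and 26.0 FPKM in control, with overlap. Its log2 difference of -0.058 (95% interval -0.16 to 0.049) was not called (adjusted p = 0.266 from limma), and was called lower under median ratio scaling (adjusted p = 0.0089).

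HNRNPL, which binds CA repeats, had 20.8, 22.3 and 21.5 FPKM in UDCA cells and 31.3, 29.97 and 27.8 FPKM in control cells. Its paralog HNRNPLL, known from the splicing of CD45 in T cells, had 6.17, 5.44 and 6.17 FPKM with UDCA and 9.17, 9.29 and 8.98 FPKM in control. The log2 differences were -0.45 and -0.55, and the ratio of both genes overlapped between the groups (exact permutation p = 0.2).

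PTBP1 binds pyrimidine tracts and represses many neuronal exons, among them one that PTBP2, its neuronal paralog, needs for stable mRNA. PTBP1 had 57.3, 57.1 and 58.1 FPKM with UDCA and 71.7, 71.4 and 74.4 FPKM in control, a 1.26-fold fall (log2 difference -0.33, adjusted p = 1.04e-05 from limma). PTBP2 had 1.64, 1.73 and 1.68 FPKM with UDCA and 2.002, 2.10 and 2.17 FPKM in control, a 1.24-fold fall (adjusted p = 0.0135 from limma). The ratio of PTBP1 to PTBP2 was 34.9, 33.1 and 34.6 with UDCA and 35.8, 34.0 and 34.4 in control. The exact permutation test of that ratio gave p = 0.6, with a difference of -0.023 on the log2 scale.

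In all, 19 ratios between paralogs were compared by exact permutation, two-sided. For 17 of them the UDCA and control libraries did not overlap. Levels of single genes did not overlap for 82.8% of all genes tested, and ratios of other gene pairs were not measured. Each of the 17 ratios had an exact permutation p = 0.1 and an adjusted p of 0.112 over the 19 ratios. None of the ratios passed 0.05, in a design where the exact permutation p cannot go below 0.1. The widest were TRA2B against TRA2A (-1.29), HNRNPUL2 against HNRNPU (-1.26), SRSF3 against SRSF7 (-1.25), SRSF6 against SRSF5 (-1.20) and SRSF1 against SRSF9 (-1.09), all as log2 of the ratio, UDCA minus control.

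These gene-level values add up all isoforms. GENCODE 29 annotates a transcript subject to nonsense-mediated decay for 32 of the 43 tested genes (74.4%) and for all 11 tested SRSF genes, against 43.4% of the 11297 protein-coding genes tested. A transcript with a retained intron is annotated for 30 of the 43 genes (69.8%), against 58.0%. Merged exons were 1.91 times as long as the principal transcript in the median over the 43 genes and 1.41 times as long over protein-coding genes. The values do not show which isoforms make up a gene's total.

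Other splicing genes were measured beside both families. In 10 lists of other splicing genes, 105 of 176 tested genes were called lower (59.7%), 46 higher (26.1%) and 21 lower at least 2-fold (11.9%), with a median log2 difference of -0.24. Over all genes tested the shares were 35.7% lower, 45.1% higher and 12.0% lower at least 2-fold. The share of these lists that was lower at least 2-fold thus lies at the background. Called rises of at least 2-fold on the log2 scale occurred in 3 of the 176 genes, against 12.3% of all genes tested. Other RNA-binding proteins of the hnRNP class had 16 of 18 lower and 1 higher (FUBP3), with a median of -0.61. Of the 21 genes in that list 3 were not tested, among them MATR3. In all lists only the first entry of a symbol was read, so a low value can miss reads of another entry. PSPC1, a paraspeckle protein, had 3.96 ± 0.333 FPKM with UDCA and 15.4 ± 0.109 FPKM in control, and TAF15, an RNA-binding protein that also belongs to the TFIID complex, had 15.6 ± 1.23 FPKM with UDCA and 38.5 ± 1.33 FPKM in control (SD, n = 3 each).

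SR-related proteins were divided, with 15 lower (51.7%) and 8 higher (27.6%) of 29, against 35.7% lower and 45.1% higher over all genes tested. BCLAF1 fell 4.31-fold and THRAP3, its relative, 1.995-fold, while ARGLU1 rose 2.02-fold and U2SURP 1.89-fold. Kinases, phosphatases and importers of SR proteins outside the named members had 6 lower (42.9%) and 4 higher (28.6%) of 14, with a lower share near the background of 35.7%. SRPK3, among the lower, passed the filter of 1 FPKM in 3 libraries through the control libraries alone. TNPO3, the transportin that imports phosphorylated SR proteins, rose to 80.2 ± 1.27 FPKM with UDCA, against 28.2 ± 0.142 FPKM in control, and DYRK3, a kinase that dissolves speckles, to 11.4 ± 0.537 FPKM, against 2.49 ± 0.410 FPKM in control (SD, n = 3 each). The catalytic subunits PPP1CA and PPP1CC of protein phosphatase fell 2.35-fold and 1.85-fold. PPP1CB, in the same list, was not called (21.8 FPKM with UDCA, 24.4 FPKM in control, adjusted p = 0.0899 from limma).

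Cell-type and tissue regulators had 13 lower (65.0%) and 7 higher (35.0%) of 20, against 35.7% lower and 45.1% higher over all genes tested. MBNL3, of the muscleblind family, fell 8.31-fold and KHDRBS3, of the STAR family, 3.20-fold. ESRP1, an epithelial splicing regulator, had 5.99 ± 0.278 FPKM with UDCA and 0.473 ± 0.0475 FPKM in control (SD, n = 3 each), and RBM5 rose 2.09-fold. MBNL3 passed the filter of 1 FPKM in 3 libraries through control libraries alone, and ESRP1 through UDCA libraries alone. The filter thus fixed the direction of both calls. CELF2, ELAVL2 and NOVA2, among the lower genes, likewise passed it through control libraries alone.

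The shares over all genes tested were 35.7% lower and 45.1% higher. Among core spliceosome lists, Sm and snRNP proteins had 15 lower (78.9%) and 3 higher (15.8%) of 19, with a median of -0.94. Besides proteins of U1 and U2 that list holds LSM2 to LSM8, which are not specific to U1 or U2. SNRPB2 stood at 99.5 ± 1.02 FPKM with UDCA and 285 ± 4.80 FPKM in control (SD, n = 3 each). LSM5 fell 4.68-fold. The small rises of LSM6 (1.17-fold) and LSM7 (1.12-fold) belong to the 3 higher calls of that list, a count that was not stable. It was 0 with limma under median ratio scaling (0 at an unadjusted p under 0.05), without the filter on low values (3 at an unadjusted p under 0.05), without control replicate 3 (0) and without UDCA replicate 3 (1). It was 1 with the replicate block, without control replicate 2 and without UDCA replicate 2, 2 under quantile normalization and without control replicate 1, and 3 with voom, with a pseudocount of 0.1 and without UDCA replicate 1. Branch point and 3′ splice site factors had 9 lower (64.3%) and 2 higher (14.3%) of 14. Among them SF3B4 (1.80-fold) and SF3B3 (1.62-fold) fell, and SF3B5 (1.37-fold) and SF3B2 (1.19-fold) rose. Tri-snRNP proteins and helicases had 12 lower and 4 higher of 20, led by PRPF31 (2.17-fold lower) and DDX23 (1.85-fold lower), with SNRNP27 (1.25-fold) and DHX38 (1.17-fold) among the higher.

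The PRP19 list had 9 higher (56.2%) and 5 lower (31.2%) of 16, with a median of 0.18, near the shares of 45.1% higher and 35.7% lower over all genes tested. SYF2 rose 1.86-fold and CWC27 1.75-fold, while CDC5L fell 2.27-fold and ISY1 1.38-fold. Exon junction and export factors had 9 lower (56.2%) and 4 higher (25.0%) of 16. Among them RBM8A (3.83-fold) and THOC3 (2.34-fold) fell, and THOC5 (1.95-fold) and NXT1 (1.80-fold) rose. Among 10 factors of nonsense-mediated decay 5 were lower and 4 higher, likewise near the background of all genes tested, with SMG9 3.05-fold and UPF1 1.42-fold lower and SMG1 1.68-fold and SMG5 1.59-fold higher. The lists were chosen with earlier results known, and no list was tested against another.

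**Figure D5:**
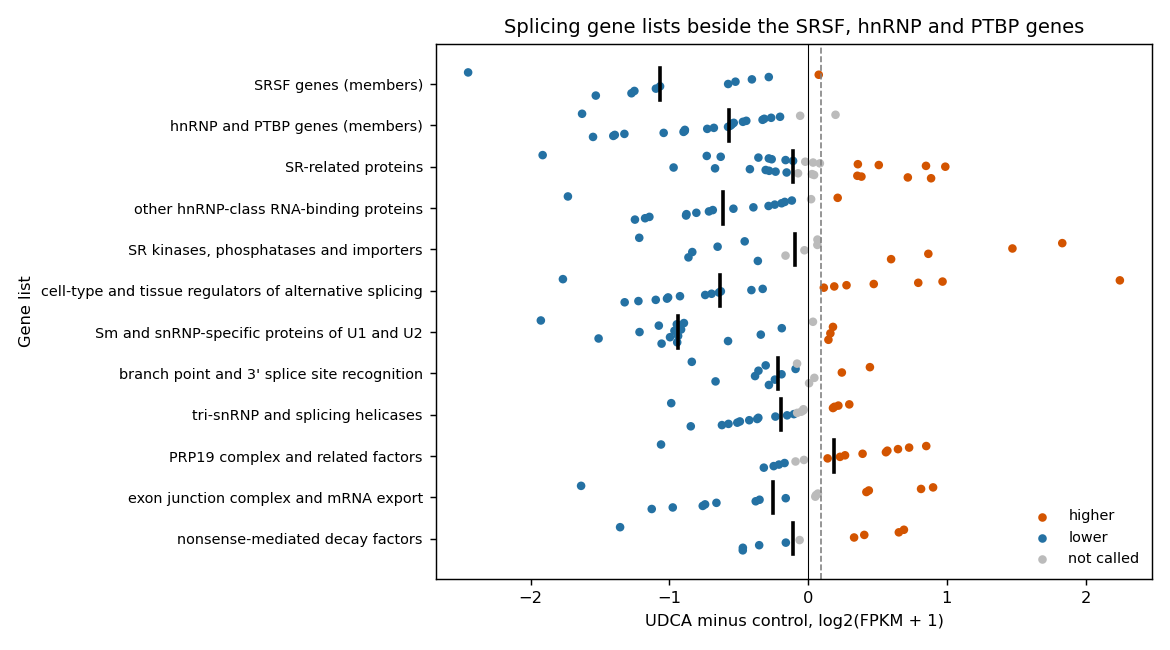
Difference in log2(FPKM + 1), UDCA minus control, of each tested gene in the SRSF genes, the hnRNP and PTBP genes and 10 lists of other splicing genes; black bars are medians, the dashed line the median of all genes tested (0.095), and colours give the call. The SRSF genes have the lowest median (-1.07). The list labelled as Sm and snRNP-specific proteins of U1 and U2, which also holds LSM genes, follows (-0.94). The PRP19 list is the one with a median above 0 (0.18).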

How the data were processed

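Per the labels' protocols, the libraries were built from polyadenylated RNA with an Illumina TruSeq kit. HISAT2, Bowtie2 2.0.6 and GRCh38 are named, without roles, per the submitters' processing notes; which program counted reads, and how it treated strand, gene overlaps and multiple hits, is not given in the sources. The table deposited by the authors was read as FPKM: multiplied by the gene's merged exon length (GENCODE 29) and a constant per library, values become whole numbers of reads, for 100% of values within 0.01, which gave the depths.

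Genes that reached 1 FPKM in 3 or more of the 6 libraries (14380) were fitted on log2(FPKM + 1) with limma 3.58.1 in R 4.3.3, trend on, group as the only term, two-sided, with Benjamini-Hochberg adjustment at 0.05. Log2 differences understate the change of low genes, and folds are ratios of mean FPKM. The fit was tested on simulated data. Ratios used exact permutation (scipy 1.17.1). Python 3.11.15, pandas 2.3.3 and matplotlib 3.10.9 made tables and plots. Named are, per class, up to 5 tested genes with the largest difference and all not called, with further members where a count or contrast concerned them, and per other list up to 2 called genes a direction with at least 2 FPKM; these further members were picked with their values in view. The members and lists were chosen with earlier results of these data known. Alternatives were quantile normalization, median ratio scaling, no filter, a pseudocount of 0.1, voom on the recovered reads, a replicate block and leaving out each library.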

Additional observations from a re-analysis of the deposited data

How the results depend on the processing

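Of the 43 tested genes, 37 kept their call and direction under all 12 alternatives. The exceptions were SRSF5, SRPK2, SRPK1, CLK4, HNRNPH3 and HNRNPA1L2. Median ratio scaling turned SRSF5 to -0.033 and CLK4 to -0.043 on the log2 scale and left 2 genes called higher (CLK1 and CLK3), in place of 4; it moved the median of all genes to 0.0023, against 0.095 without it. Without the filter on low values SRSF5 was not called (adjusted p = 0.0848, limma). Genes called lower numbered 35 to 37 over the alternatives, and 12 to 14 were lower at least 2-fold. With each library left out, 3 to 5 were called higher. Same-numbered UDCA and control libraries did not deviate together (r across genes of -0.0012 to 0.014). These values cannot decide whether the numbers pair the libraries, since paired libraries need not deviate together. With a replicate block 4 genes were called higher, 35 lower and 13 lower at least 2-fold. The cause of these changes was not tested. Depth limits SRSF12, HNRNPCL1 and HNRNPCL2, where 3 reads in 1 kb come to 0.169 to 0.188 FPKM, for counting error only. Calls rest on libraries that may be technical repeats, and gene totals do not separate isoforms or shared exons.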

Other observations

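Pseudogenes named after the members held few of the recovered reads. The largest share was that of HNRNPL, whose single named pseudogene held 3.71%, 3.21% and 4.02% as many reads as HNRNPL in the UDCA libraries and 2.26%, 2.33% and 3.18% in the control libraries. The 28 named HNRNPA1 pseudogenes together held 0.950%, 0.960% and 1.07% as many reads as HNRNPA1 with UDCA and 0.559%, 0.593% and 0.635% in control. In reads these were 156, 168 and 185 with UDCA and 153, 170 and 183 in control. The 5 HNRNPC pseudogenes held 2.55%, 1.89% and 2.61% as many reads as HNRNPC with UDCA and 2.65%, 2.40% and 1.97% in control. Whether such reads come from the parent genes was not tested.

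Genes that overlap the members were measured with them. COX20, which overlaps 15.6% of the exon bases of HNRNPU on the opposite strand, had 0.565 FPKM with UDCA and 1.18 FPKM in control. It was called lower, but passed the filter of 1 FPKM in 3 libraries through the control libraries alone. The filter thus fixed the direction of that call. CBX3, which overlaps 3.97% of those of HNRNPA2B1 on the opposite strand, had 51.6 FPKM with UDCA and 86.5 FPKM in control and was called lower.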
